A study of Mus musculus with 7 samples.

Results

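Type I interferon-stimulated genes are the antiviral and signalling genes that cells switch on when interferon alpha or beta binds its receptor. The set described here held 36 such genes, chosen by name from 28786 genes in the deposited count table, and all 36 passed the filter on low counts that left 14226 genes for testing. The cells were labelled hematopoietic stem cells (HSCs), the source of all blood lineages, sorted from the bone marrow of mice aged 6 to 8 weeks at 1500 cells per library. The 4 MC38 libraries came from mice labelled as carrying MC38, a mouse colon carcinoma line, on the C57BL/6J background. The control libraries came from mice that the series calls normal, with no treatment named. The labels give no further allele or agent for either group, no time after tumour implantation and no sort gate, and do not state that each library is a different animal. The spread on which p-values rest may therefore be technical. The series title names interferon gamma, the type II interferon, as the signal under study, so the comparison here asks how genes of the type I programme stood in the same cells.

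Type I interferons signal through the receptor chains Ifnar1 and Ifnar2 and the kinases Jak1 and Tyk2. Phosphorylated Stat2 and Irf9 act in a complex named ISGF3, which binds a DNA element called the interferon-stimulated response element (ISRE) in the promoters of its targets. In mouse bone marrow, acute type I interferon is known to bring dormant stem cells into cycle, and stem cells are known to express part of this gene set without infection.

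The sequences below show the ISRE letters in promoters of members on which the results turn. The core searched was GAAANNGAAA, or TTTCNNTTTC where it lies on the other strand, in RefSeq promoters of 250 bases before and 50 bases after each gene start (GRCm38.p6). Each line reads 5′ to 3′ on the strand of the gene, and capitals mark the core or overlapping cores, with 10 flanking bases where the upstream window held them. Isg15 and Ifit1 are classical targets, Stat2 encodes an ISGF3 subunit, Rsad2 had lower values in MC38 libraries, Bst2 had the highest level per kilobase, and the 2 pairs of near-identical genes share their windows.
Isg15: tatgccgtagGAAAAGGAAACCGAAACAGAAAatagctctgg
Ifit1: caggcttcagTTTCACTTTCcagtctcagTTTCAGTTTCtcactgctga
Stat2: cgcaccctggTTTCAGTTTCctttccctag
Rsad2: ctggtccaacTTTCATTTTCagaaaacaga
Bst2: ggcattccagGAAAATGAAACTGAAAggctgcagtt
Ifit3: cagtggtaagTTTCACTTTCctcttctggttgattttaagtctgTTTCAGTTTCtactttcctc
Ifit3b: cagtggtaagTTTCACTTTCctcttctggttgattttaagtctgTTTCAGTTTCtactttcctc
Oas1a: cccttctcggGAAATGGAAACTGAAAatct
Oas1g: cccttctcggGAAATGGAAACTGAAAat

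The windows lie at chr4:156200865-156200906 (minus strand) for Isg15, chr19:34640775-34640823 (plus) for Ifit1, chr10:128270266-128270295 (plus) for Stat2 and chr12:26456553-26456582 (minus) for Rsad2. Those of Bst2, Ifit3 and Ifit3b lie at chr8:71537577-71537612 (minus), chr19:34583363-34583426 (plus) and chr19:34607759-34607822 (plus). The Oas1a window lies at chr5:120907526-120907555 (minus) and that of Oas1g at chr5:120887614-120887641 (minus). Ifit3 and Ifit3b had identical letters at 64 of 64 bases, and Oas1a and Oas1g at 28 of 28 bases compared.

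An ISRE core was present in 16 of the 26 members with a RefSeq promoter entry (61.5%), against 1079 of all 27025 genes with an entry (3.99%). The members with no entry were Usp18, Oas2, Mx1, Mx2, Parp9, Ifi27l2a, Rtp4, Dhx58, Zbp1 and Ifi204. Oasl1 and Oasl2 had an entry without the core. A match in these letters is a description and not a measured binding site.

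Library totals were 14964782, 14517636, 17657037 and 13368238 counts in MC38 libraries and 12131546 and 12306066 counts in control libraries 1 and 2. The remaining control column was left out of the fits because it is not an independent library. Its counts stood at a median of 0.353 of the sum of the other control columns, with 95% of 9652 genes between 0.341 and 0.371, whereas the same ratio of MC38 library 3 to the sum of MC38 libraries 1 and 2 ran between 0.221 and 1.190. Stem cell markers were present: 12 of 12 were tested, with none called by edgeR, and the receptor tyrosine kinase Kit averaged 327.4 ± 29.4 CPM (counts per 1000000 counts of the library) in MC38 libraries (SD, n = 4) and 352.0 ± 42.7 CPM in control libraries (SD, n = 2). S100a8, a neutrophil calcium-binding protein gene, is one that a stem cell should hold little of. It was at 20043 ± 796 CPM in MC38 libraries and 10381 ± 374 CPM in control libraries. Of 10 neutrophil markers edgeR called 7 higher, beside 1.04% of all genes tested, and 1 lower (Mpo), beside 0.569%.

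The median difference over the type I set was close to 0. None of the 36 members was called higher in MC38 libraries and none lower, at an adjusted p under 0.05 in edgeR's quasi-likelihood test, where 1.04% of all genes tested were called higher and 0.569% lower. DESeq2 called 0 members, where it called 4.40% of all genes higher and 2.79% lower, and limma-voom called 0, where it called 0.633% higher and 0.499% lower. Without the filter edgeR also called 0 members, beside 1.41% of all genes called higher and 0.941% lower.

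Calls among the members came with alternatives that took the remaining control column as a library or paired libraries by number. With all 7 columns, Stat2 and Oasl2 were called higher and none lower, where 5.74% of all genes were called higher and 4.81% lower. With the replicate number as a block, Rsad2 was called lower and none higher, where 1.89% of all genes were called higher and 1.34% lower. In that fit numbers 3 and 4 occur only in MC38 libraries. Its fold changes therefore compare MC38 libraries 1 and 2 with control libraries 1 and 2. In the fit of 6 libraries without a block, at an unadjusted p under 0.05, there were 6 members (16.7%), 3 with higher values (Stat2, Oasl2 and Oas2) and 3 with lower values (Oasl1, Rsad2 and Eif2ak2), against 9.26% of all genes tested with higher values, 8.22% with lower values and 17.5% in all. The members' share was thus near the background.

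The members split almost evenly by direction, 19 with a positive and 17 with a negative log2 fold change of MC38 over control, and 50.9% of all genes tested were positive. Their median log2 fold change was 0.04, beside 0.01 over all genes tested, and their quartiles were -0.25 and 0.30, beside -0.30 and 0.37. The mean was -0.06 over members and 0.11 over all genes, so the median and the mean of the members differ in sign. The summed level of the 36 members was 1117, 1182, 1261 and 1208 CPM in MC38 libraries, and 1104 and 1107 CPM in control libraries. Every MC38 library lay above both controls in this sum, the closest by little, and the members together took 0.12% of the counts in MC38 libraries and 0.109% in control libraries. The largest differences in mean CPM, in either direction, were those of Ifi203 (112.2 CPM in MC38 and 82.8 CPM in control libraries) and Trim30a (87.0 and 58.2 CPM). Both genes overlapped between the groups.

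**Figure D1:**
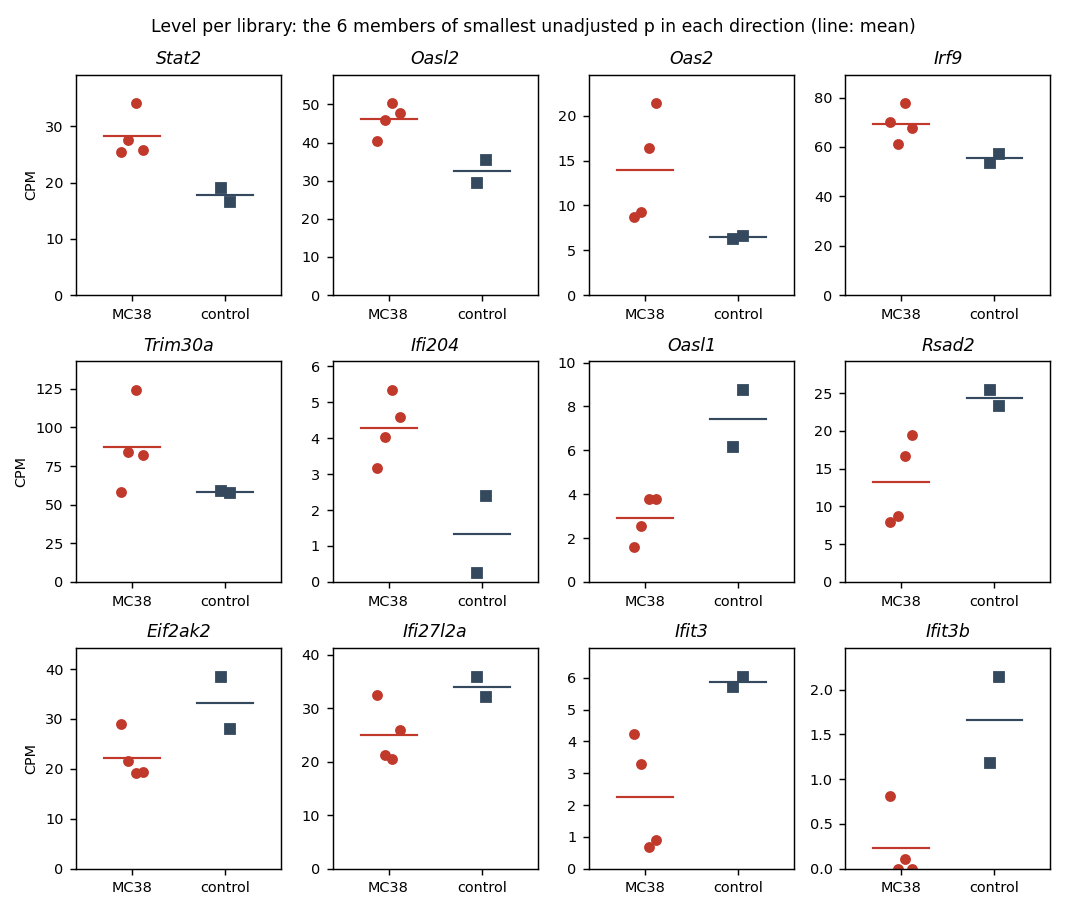
CPM per library (linear axis from 0) of the 6 members of smallest unadjusted p in each direction, MC38 libraries (circles) left of control libraries (squares), with a line at each group mean. Stat2, Oasl2, Oas2, Irf9 and Ifi204 are higher in all 4 MC38 libraries than in both controls, Oasl1, Rsad2, Ifit3 and Ifit3b are lower in all 4, and Trim30a, Eif2ak2 and Ifi27l2a overlap through MC38 library 1.

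In 9 members (25.0%) the libraries of the groups did not overlap, beside 29.0% of all genes tested. Every MC38 library was above both controls for Irf9, Stat2, Oasl2, Oas2 and Ifi204, beside 14.0% of all genes, and below both for Rsad2, Oasl1, Ifit3 and Ifit3b, beside 15.0%. With 6 libraries the exact permutation test has 15 splits and cannot give a two-sided p under 0.0667. The intervals of the fit show what these libraries could resolve. The 95% interval of the log2 fold change lay between -1 and 1 for 20 of the 36 members, beside 47.6% of all genes tested. It excluded a 2-fold rise for 26 members. In bulk samples, fewer cells of a type and less RNA per cell cannot be told apart.

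**Figure D2:**
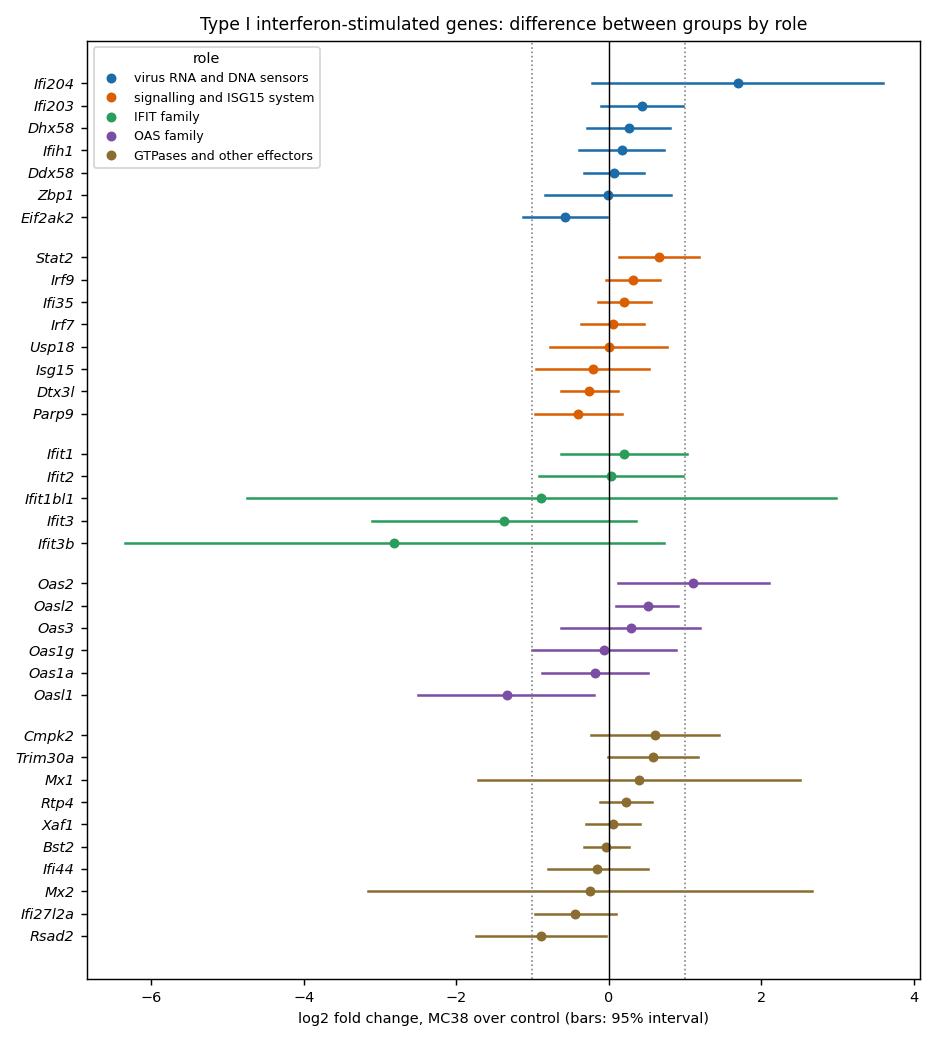
Log2 fold change of each member, MC38 over control, with its 95% interval from edgeR's fit, grouped by role. Dotted lines mark a 2-fold difference each way; intervals are narrow for abundant members such as Bst2 and wide for Ifit3b, Ifit1bl1, Mx1 and Mx2, which had few counts.

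Among signalling members, Stat2 and Irf9 did not overlap between the groups. Stat2 (ENSMUSG00000040033, chr10:128270559-128292849 in mm10, plus strand) was at 25.5, 27.5, 34.1 and 25.8 CPM in MC38 libraries and 19.1 and 16.6 CPM in control libraries. All 4 MC38 libraries stood above both controls, by a fitted 1.58-fold, a log2 fold change of 0.66 (SE 0.23, 95% interval 0.14 to 1.18, edgeR adjusted p = 0.185). This was the smallest adjusted p of the 36 members, and it did not pass the threshold. Irf9 (chr14:55603571-55610030, plus), the DNA-binding subunit, was at 70.2, 61.4, 77.7 and 67.6 CPM in MC38 libraries and 53.5 and 57.2 CPM in control libraries. The groups did not overlap here either, with a log2 fold change of 0.32 (interval -0.03 to 0.67, edgeR adjusted p = 0.327).

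Irf7, the transcription factor that amplifies interferon alpha production, was nearly level. Its values were 36.8, 40.9, 37.2 and 39.0 CPM in MC38 libraries and 32.6 and 41.8 CPM in control libraries, so that the controls bracketed every MC38 library. The log2 fold change of Irf7 (chr7:141262706-141266481, minus) was 0.05, with an interval of -0.36 to 0.46 (edgeR adjusted p = 0.925).

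Usp18, which removes ISG15 from proteins and dampens signalling at the Ifnar2 chain, was at 18.6, 15.2, 11.0 and 11.4 CPM in MC38 libraries and 17.4 and 10.7 CPM in control libraries. Isg15 itself, a ubiquitin-like protein that is attached to other proteins (ENSMUSG00000035692, chr4:156199424-156200818, minus), was at 19.6, 16.2, 11.3 and 13.2 CPM in MC38 libraries and 22.2 and 12.8 CPM in control libraries. In both genes the high and low libraries fell within each group: MC38 libraries 1 and 2 and control library 1 were high, and MC38 libraries 3 and 4 and control library 2 were low. Log2 fold changes were -0.00 for Usp18 (interval -0.77 to 0.76) and -0.21 for Isg15 (interval -0.96 to 0.53), with edgeR adjusted p of 1 and 0.8.

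The other signalling members were Ifi35, a leucine zipper protein, and the partners Parp9 and Dtx3l, an ADP-ribosyltransferase family protein and a ubiquitin ligase encoded head to head. Ifi35 was at 81.1, 77.5, 78.2 and 83.6 CPM in MC38 libraries and 60.4 and 78.7 CPM in control libraries, with overlap (log2 fold change 0.20, edgeR adjusted p = 0.543, and 0.03 without control library 1 and 0.41 without control library 2). Parp9 and Dtx3l both had negative log2 fold changes, -0.40 and -0.26, and edgeR adjusted p of 0.457 and 0.471. The exons of Parp9 and Dtx3l overlap on opposite strands over 9.4% and 8% of their exonic bases, and those of Ifi35 overlap another gene over 16.8%. The strand setting of the counting is not given in the sources used here, so these reads cannot be told apart.

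Of the 7 sensors of viral RNA and DNA, 5 had positive and 2 negative log2 fold changes, with a median of 0.17 and none called. The RIG-I-like receptors were near level: log2 fold changes were 0.17 for Ifih1 (MDA5), 0.07 for Ddx58 (RIG-I) and 0.26 for their regulator Dhx58 (LGP2), and the libraries overlapped in all of them. Zbp1, a sensor of Z-form nucleic acid that can trigger cell death, had a log2 fold change of -0.01.

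Eif2ak2 encodes PKR, the kinase that stops translation on binding double-stranded RNA (chr17:78852564-78882573, minus). It was at 28.9, 21.5, 19.2 and 19.4 CPM in MC38 libraries and 38.4 and 27.9 CPM in control libraries. MC38 library 1 lay just above the lower control and the other MC38 libraries below both, with a log2 fold change of -0.57 (SE 0.25, interval -1.13 to -0.02, edgeR adjusted p = 0.272). It was -0.33 without control library 1.

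Ifi203 and Ifi204 belong to the mouse family of DNA-binding HIN-200 proteins. Ifi203 was at 77.8, 92.9, 139.1 and 138.9 CPM in MC38 libraries and 79.3 and 86.2 CPM in control libraries, so that MC38 libraries 3 and 4 stood high and library 1 stood with the controls (log2 fold change 0.44, edgeR adjusted p = 0.384). Ifi204 had 47, 59, 96 and 62 counts in MC38 libraries and 3 and 29 counts in control libraries, or 3.16, 4.03, 5.34 and 4.58 CPM beside 0.25 and 2.39 CPM. Its log2 fold change was 1.69 with a wide interval of -0.22 to 3.59 (edgeR adjusted p = 0.343), and it was 4.04 without control library 2 and 0.84 without control library 1. Of the 50-base windows of Ifi204 transcripts, 30.2% also occur in other genes, mainly Ifi211, so its reads may have been split or lost.

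The IFIT proteins bind viral RNA and block its translation. Ifit1 (chr19:34640871-34650009, plus) was at 13.0, 15.4, 17.3 and 10.8 CPM in MC38 libraries and 7.97 and 16.6 CPM in control libraries. The controls lay wide apart and spanned 3 of the MC38 libraries, and the log2 fold change was 0.20 (interval -0.62 to 1.02, edgeR adjusted p = 0.833). Ifit2 was level, at 6.25 ± 1.69 CPM in MC38 libraries (SD, n = 4) and 6.12 ± 0.0177 CPM in control libraries (SD, n = 2). Ifit1bl1 was near the limit of detection, at 0.36 ± 0.459 CPM in MC38 libraries and 0.67 ± 0.95 CPM in control libraries.

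Ifit3 (chr19:34583531-34588731, plus) and its near-identical neighbour Ifit3b (chr19:34607970-34613401, plus) stood apart from Ifit1 and Ifit2 in direction. Ifit3 was at 4.23, 3.28, 0.67 and 0.89 CPM in MC38 libraries and 5.71 and 6.02 CPM in control libraries, from 63, 48, 12 and 12 counts beside 68 and 73 counts. Ifit3b had 12, 0, 2 and 0 counts in MC38 libraries and 14 and 26 counts in control libraries, and a count of 0 allows up to 0.207 CPM in MC38 library 2 and 0.224 CPM in MC38 library 4. Both genes were lower in every MC38 library than in either control.

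The fitted log2 fold changes were -1.37 for Ifit3 (SE 0.77, interval -3.10 to 0.36) and -2.81 for Ifit3b (SE 1.57, interval -6.34 to 0.72), with edgeR adjusted p of 0.398 and 0.395. Without MC38 library 1 that of Ifit3b was -5.06. The genes share sequence: 51.2% of the 50-base windows of Ifit3 and 45% of those of Ifit3b occur elsewhere, mainly in each other. Reads from those stretches could have been split between the genes or lost, so the pair is not independent evidence.

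The OAS family makes 2-5A, the messenger that activates the RNA-degrading enzyme RNase L, and its OASL branch has other functions. The 6 members tested had a median log2 fold change of 0.11, with 3 positive and 3 negative. Oas2 (chr5:120730333-120749853, minus) was at 8.74, 9.22, 16.4 and 21.4 CPM in MC38 libraries and 6.30 and 6.60 CPM in control libraries. Every MC38 library was above both controls, MC38 libraries 3 and 4 by the most, with a fitted 2.16-fold difference, a log2 fold change of 1.11 (SE 0.44, interval 0.12 to 2.10, edgeR adjusted p = 0.238).

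The neighbouring mouse genes Oasl1 and Oasl2 pointed in opposite directions. Oasl2 (chr5:114896936-114912234, plus) was at 40.4, 45.8, 50.3 and 47.8 CPM in MC38 libraries and 29.5 and 35.5 CPM in control libraries. Oasl1 (chr5:114923240-114937915, plus), known in mouse to repress translation of Irf7, was at 1.61, 2.53, 3.78 and 3.77 CPM in MC38 libraries and 6.13 and 8.74 CPM in control libraries. Neither gene overlapped between the groups: Oasl2 was higher and Oasl1 lower in all 4 MC38 libraries than in both controls. The log2 fold change was 0.51 for Oasl2 (SE 0.18, interval 0.10 to 0.91, edgeR adjusted p = 0.196) and -1.34 for Oasl1 (SE 0.51, interval -2.50 to -0.19, edgeR adjusted p = 0.223).

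Oas1a was at 25.1, 33.8, 25.0 and 23.2 CPM in MC38 libraries and 19.1 and 41.5 CPM in control libraries, so the controls spanned every MC38 library. Its near-identical copy Oas1g was at 9.14, 10.1, 4.34 and 7.02 CPM in MC38 libraries and 7.39 and 8.58 CPM in control libraries, also with overlap. More than any other members they share sequence, with 57.6% of the 50-base windows of Oas1a and 54.7% of those of Oas1g found elsewhere, mainly in each other. Log2 fold changes were -0.18 for Oas1a (edgeR adjusted p = 0.825) and -0.06 for Oas1g (edgeR adjusted p = 0.958). Oas3 had a log2 fold change of 0.29 (edgeR adjusted p = 0.778), with MC38 library 1 at 10.5 CPM and MC38 library 3 at 36.7 CPM.

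The dynamin-like GTPases Mx1 and Mx2, classical markers of the response, were scarce. Mx1 was at 2.02, 1.64, 3.56 and 1.92 CPM in MC38 libraries and 0.34 and 3.13 CPM in control libraries, and Mx2 was at 1.28, 2.80, 1.78 and 1.11 CPM in MC38 libraries and 0 and 4.12 CPM in control libraries. Control library 1 was the lowest and control library 2 at or near the highest in both genes. The intervals reached from -1.72 to 2.51 for Mx1 and from -3.16 to 2.67 for Mx2 on the log2 scale. A 2-fold difference in either direction lay within both intervals.

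Rsad2 encodes viperin, an enzyme that makes a chain-terminating nucleotide, and Cmpk2 encodes a nucleotide kinase beside it on chromosome 12. Rsad2 (chr12:26442746-26456452, minus) was at 7.93, 8.68, 16.7 and 19.4 CPM in MC38 libraries and 25.4 and 23.3 CPM in control libraries. Cmpk2 was at 11.8, 19.5, 30.9 and 26.0 CPM in MC38 libraries and 13.6 and 15.3 CPM in control libraries. All 4 MC38 libraries lay below both controls for Rsad2, whereas MC38 library 1 lay below and the other MC38 libraries above both controls for Cmpk2.

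The log2 fold change was -0.89 for Rsad2 (SE 0.38, interval -1.74 to -0.03, edgeR adjusted p = 0.268) and 0.61 for Cmpk2 (interval -0.23 to 1.44, edgeR adjusted p = 0.44). Within the MC38 group both genes had higher values in libraries 3 and 4 than in libraries 1 and 2. The difference between their fold changes was not tested.

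Among the other effectors, Bst2 (tetherin, which holds virus particles at the cell surface) was among the highest and the steadiest. It was at 94.8, 92.4, 87.2 and 86.3 CPM in MC38 libraries and 97.8 and 87.2 CPM in control libraries, with overlap. The interval of its log2 fold change of -0.04 ran from -0.33 to 0.26 (edgeR adjusted p = 0.92). Per kilobase of exon, Bst2 also had the highest level of the set at 101 CPM per kb, followed by Ifi27l2a at 60.5, Ifi35 at 44.3 and Rtp4 at 36.4, with Isg15 at 21 and Mx1 at 0.555.

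Xaf1, an antagonist of the inhibitor of apoptosis XIAP, was at 112.1, 116.8, 85.7 and 100.5 CPM in MC38 libraries and 106.8 and 93.2 CPM in control libraries. Rtp4, a receptor transport protein, was at 92.4, 79.4, 80.9 and 73.0 CPM in MC38 libraries and 65.9 and 73.2 CPM in control libraries. Both overlapped between the groups, with log2 fold changes of 0.05 (edgeR adjusted p = 0.901) for Xaf1 and 0.23 (edgeR adjusted p = 0.484, and 0.15 without control library 1) for Rtp4. Of the 50-base windows of Rtp4 transcripts, 13.6% also occur in another gene.

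Trim30a, a tripartite-motif protein that limits Toll-like receptor signalling in mouse, was at 57.9, 84.0, 124.1 and 82.1 CPM in MC38 libraries and 58.8 and 57.5 CPM in control libraries. MC38 library 3 was the highest and MC38 library 1 stood between the controls, with a log2 fold change of 0.58 (interval -0.01 to 1.17, edgeR adjusted p = 0.29) that was 0.36 without MC38 library 3. Ifi27l2a, a small mitochondrial interferon-induced protein, was at 32.5, 21.2, 20.5 and 26.0 CPM in MC38 libraries and 35.8 and 32.1 CPM in control libraries. Its values overlapped through MC38 library 1 alone, and its log2 fold change was -0.44 (interval -0.97 to 0.10, edgeR adjusted p = 0.381). Ifi44 had a log2 fold change of -0.15 (edgeR adjusted p = 0.852).

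The libraries did not rank alike across members. MC38 library 3 held the highest value for 12 members and control library 1 for 8, and control library 1 also held the lowest value for 12 members and MC38 library 1 for 8. The median deviation of the members from their own mean over the 6 libraries, on a log2 scale, was 0.04, 0.07, 0.02 and 0.02 in MC38 libraries and -0.03 and -0.03 in control libraries.

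**Figure D3:**
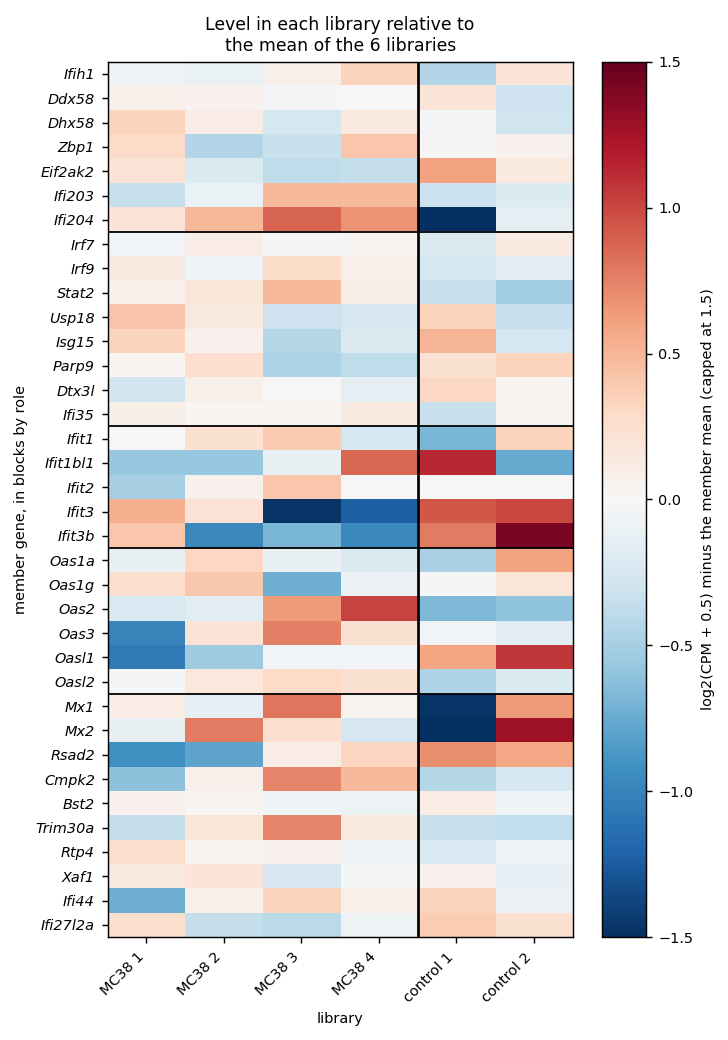
Heat map of each member's log2 deviation from its mean over the 6 libraries, capped at 1.5, MC38 libraries left of control libraries and members in blocks by role. Members of a block can have opposite colours in the same library, as Oasl1 and Oasl2 do in both control libraries.

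Longer and shorter members differed in which libraries held their higher values. Across the 36 members, the correlation of the deviation with log2 exonic length, given as a description since genes share a library, was -0.36, 0.14, 0.46 and 0.31 in MC38 libraries and -0.23 and -0.21 in control libraries. Over all genes with a mean of at least 10 CPM it was -0.14, -0.10, 0.20 and 0.19 in MC38 libraries and -0.14 and 0.00 in control libraries. The 16 members of 4 kb and over had median deviations of -0.15, 0.07, 0.29 and 0.12 in MC38 libraries and -0.15 and -0.16 in control libraries. The 6 members under 2 kb had 0.17, 0.05, -0.26 and -0.14 in MC38 libraries and 0.24 and 0.14 in control libraries.

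Long members were thus above their means and short members below them in MC38 libraries 3 and 4, with the reverse in MC38 library 1 and both control libraries. With the trend of all genes on length removed, an alternative chosen after seeing the data, 0 members were called and the median was 0.04. The log2 fold changes in that fit were 0.62 for Stat2, 1.10 for Oas2, -0.90 for Rsad2, -1.31 for Oasl1 and -1.35 for Ifit3.

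**Figure D4:**
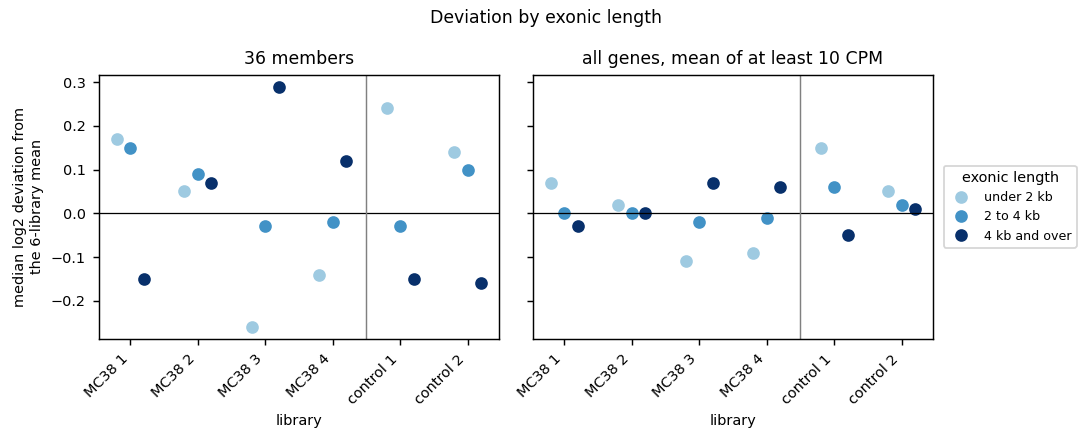
Median log2 deviation from the 6-library mean by exonic length class, for the 36 members (left) and for all genes with a mean of at least 10 CPM (right), MC38 libraries left of the vertical line and control libraries right of it. Long members (dark) are highest in MC38 library 3, at 0.29, and short members (light) are highest in control library 1, at 0.24.

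Members with and without the ISRE letters were found in both directions. Of the 16 with a core, 7 had positive and 9 negative log2 fold changes, with a median of -0.05 and a range from -2.81 for Ifit3b to 0.66 for Stat2. Of the 10 with an entry and no core, 7 were positive and 3 negative, with a median of 0.05. Stat2 and Rsad2, whose printed windows each hold a core in the same orientation, had fold changes of opposite sign.

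Most interferon ligand genes had few or no counts. Of 17 matched ligand genes, 9 had no count in any of the 6 libraries and 4 passed the filter. Ifnb1, the type I interferon that many cells make first, had 0, 11, 0 and 0 counts in MC38 libraries and 25 and 0 counts in control libraries. Ifnz, a type I ligand gene named after its values were seen, had 3, 31, 62 and 13 counts in MC38 libraries and 4 and 0 counts in control libraries, with overlap and a log2 fold change of 3.27 (interval -0.48 to 7.01, edgeR adjusted p = 0.352). MC38 libraries 2, 3 and 4 stood above both controls for Ifnz and MC38 library 1 between them. Ifng, encoding interferon gamma, had 53, 49, 113 and 105 counts in MC38 libraries and 58 and 25 counts in control libraries, with overlap and a log2 fold change of 0.60 (interval -0.73 to 1.92, edgeR adjusted p = 0.662).

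The receptor chains were present and not called by edgeR. Ifnar1 averaged 60.7 ± 12.4 CPM in MC38 libraries (SD, n = 4) and 46.9 ± 8.53 CPM in control libraries (SD, n = 2), a log2 fold change of 0.37 (interval -0.12 to 0.86, edgeR adjusted p = 0.415). Ifnar2 averaged 97.2 ± 18.8 CPM in MC38 libraries and 84.8 ± 3.88 CPM in control libraries (edgeR adjusted p = 0.639). Of the 11 receptor and proximal signalling genes edgeR called 0 and DESeq2 1 (Ptpn6, higher), and of 15 genes of the pathways that induce interferon edgeR called 0 and DESeq2 2 (Tbk1, higher, and Cgas, lower). Over all genes DESeq2 called 4.40% higher and 2.79% lower. In the induction list Irf3, the factor that starts Ifnb1 transcription, had a log2 fold change of -0.03 (edgeR adjusted p = 0.958).

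The smallest adjusted p among the induction genes belonged to Cgas, the cytosolic DNA sensor, named after its values were seen. It was at 5.44, 9.63, 5.73 and 8.43 CPM in MC38 libraries and 20.1 and 19.0 CPM in control libraries. All MC38 libraries lay below both controls, with a log2 fold change of -1.42 (interval -2.16 to -0.68, edgeR adjusted p = 0.0672), short of the threshold.

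A list of other interferon-stimulated genes had 46 members tested, with 0 called by edgeR and a median log2 fold change of 0.12. DESeq2 called 3 higher (Samd9l, Slfn1 and Slfn2, 6.52%) and none lower, beside 4.40% of all genes called higher and 2.79% lower. At an unadjusted p under 0.05 in edgeR the list held 8 with higher values (17.4%) and 0 with lower, beside 9.26% of all genes tested with higher and 8.22% with lower values. The list of genes that lean to interferon gamma had 31 tested, with a median log2 fold change of 0.26, 21 positive and 10 negative. At an unadjusted p under 0.05 in edgeR it held 5 with higher values and 1 with lower. Without overlap between the groups 7 were higher, beside 14.0% of all genes tested, and 3 lower, beside 15.0%. The 1 called by edgeR, where 1.04% of all genes were called higher, was the serine protease inhibitor gene Serpina3g. It was at 376.5 ± 15.3 CPM in MC38 libraries, against 172.5 ± 8.16 CPM in control libraries (log2 fold change 1.13, edgeR adjusted p = 0.000946). Irf1, an early target of both interferon types, was level at 134.9 ± 4.25 CPM in MC38 libraries and 134.6 ± 8.74 CPM in control libraries. The difference between the type I set and the gamma-leaning list was not tested.

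Markers of other blood cells differed between the groups and several of these cells express type I genes. Plasmacytoid dendritic cells are known for high Irf7 and, in mouse, for Bst2 at the cell surface. The summed level of their 10 markers was 480.0 to 499.1 CPM in MC38 libraries and 302.2 to 354.5 CPM in control libraries, none of the 10 was at 0, and Siglech (68.8 ± 3.89 CPM in MC38 libraries and 29.4 ± 6.9 CPM in control libraries) and Ccr9 were called higher (edgeR adjusted p = 0.013 and 0.0405). Irf7 and Bst2, given above, had log2 fold changes of 0.05 and -0.04.

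The summed level of 12 macrophage and monocyte markers was 618.6 to 731.6 CPM in MC38 libraries and 506.9 to 528.2 CPM in control libraries. This sum was held mostly by Ly6c2, at 479.6 ± 49.7 CPM in MC38 libraries and 393.1 ± 17.1 CPM in control libraries (edgeR adjusted p = 0.277). Of the 12 markers 9 had positive and 3 negative log2 fold changes. The 1 called was the complement gene C1qa, at 4.31 ± 1.04 CPM in MC38 libraries and 0.17 ± 0.116 CPM in control libraries. The 10 neutrophil markers summed to 55833 to 63885 CPM in MC38 libraries and 31195 to 31756 CPM in control libraries. This sum was held mostly by S100a8, given above, and S100a9, at 17850 ± 1710 CPM in MC38 libraries and 8004 ± 43.6 CPM in control libraries. Of these 10 markers 8 had positive log2 fold changes and 2 negative (Mpo at -0.64 and Elane at -0.31). B and plasma cell markers summed to 5033 to 5927 CPM in MC38 libraries and 2843 to 3350 CPM in control libraries, with 2 of 8 called higher. The 10 T and NK cell markers summed to 403.1 to 448.5 CPM in MC38 libraries and 421.4 to 487.6 CPM in control libraries, a sum held mostly by Nkg7 at 364.5 ± 26.9 CPM in MC38 libraries and 419.9 ± 46.1 CPM in control libraries. Of these 10 markers 8 had positive log2 fold changes and 2 negative (Nkg7 at -0.20 and Gzma at -1.14), with a median of 0.96. Klrb1c, Cd3d, Cd3g and Trac, named after their values were seen, were higher in every MC38 library than in both controls, beside 14.0% of all genes tested. Nkg7 was lower in every MC38 library than in both controls, beside 15.0%. None of the 10 passed the threshold in edgeR (smallest adjusted p = 0.0541, for Klrb1c). Erythroid markers summed to 1000 to 1432 CPM in MC38 libraries and 1424 to 1564 CPM in control libraries, with none called by edgeR. The part of these cells in the members' values was not tested.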

How the data were processed

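The authors deposited raw read counts for Ensembl genes. The submitters' processing notes name HTSeq 0.10.0, STAR 2.6.1, Trim Galore 0.5.0 and mm10. Which annotation and strand setting were used is not given in the sources used here. Per the labels' protocols, polyadenylated RNA from 1500 sorted cells was reverse transcribed by a low-input method and amplified with 12 PCR cycles; no molecular identifiers are named, so PCR copies were counted as reads and floors cover counting error only.

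Symbols and coordinates came from GENCODE M21 (GRCm38), which named 27797 of 28786 gene IDs. Counts of 4 MC38 and 2 control libraries were fitted in edgeR 4.0.16 (R 4.3.3) by its robust quasi-likelihood test after filterByExpr and TMM scaling. P-values were adjusted by Benjamini-Hochberg over 14226 genes, with a threshold of 0.05. Intervals are 95% intervals from the fitted SE. CPM used TMM-scaled totals, and a count of 0 stayed at 0 CPM. The floor printed for a count of 0 is an upper limit of 3 counts over the library total without TMM scaling. Log2 deviations used a pseudocount of 0.5 CPM. Alternatives used DESeq2 1.42.0, limma 3.58.1, other scalings, filters, libraries and a replicate block.

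The members and lists were chosen with earlier results of these data known. Given in full were members past the threshold, the 6 of smallest p in each direction, the 6 of highest mean CPM, defining members and near-identical pairs. The symbols Ifna6, Ifna7, Ifna11, Ifnab, Gbp5 and Gbp6 were not matched and are not analysed here.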

Additional observations from a re-analysis of the deposited data

Results flagged for a closer look

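Of the 36 members looked at, the MC38 libraries of Ifit3b held a library apart from the others. MC38 library 1 was at 0.81 CPM, beside 0, 0.11 and 0 CPM in MC38 libraries 2, 3 and 4, and its gap to the nearest library was 0.862 of the whole range of the group. Both control libraries were above it, at 1.18 and 2.14 CPM. Chance marks about 1 in 20 groups by this measure.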

How the results depend on the processing

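For the 24 members given in full (the other 12 were not compared singly), of 336 results under 14 alternatives 308 kept their direction and their side of the threshold, 25 changed sign in 9 members, and 3 gained a call. With all 7 columns, which counts the dependent control column as a library, 2 members were called higher, Stat2 (0.65, edgeR adjusted p = 0.043) and Oasl2 (0.50, edgeR adjusted p = 0.0438), where 5.74% of all genes were called higher. The deviations of same-numbered libraries correlated at 0.076 for number 1 and -0.073 for number 2 over 10884 genes. With 2 controls, the deviation of one is that of the other with its sign reversed. These values therefore rest on a single control contrast and cannot settle whether the numbers pair the libraries. With the number as a replicate block, 1 member was called lower, Rsad2 (-1.55, edgeR adjusted p = 0.032), and log2 fold changes turned positive for Usp18 (0.30), Isg15 (0.08), Oas1a (0.04), Oas1g (0.27) and Bst2 (0.02). These block values compare only MC38 libraries 1 and 2 with control libraries 1 and 2, since numbers 3 and 4 had no control library. Over the ligand, receptor, induction and other interferon-stimulated lists together, which do not include the gamma-leaning list, edgeR called 0 of 76 genes. It called 7 of 74 with all 7 columns (9.46%, beside 5.74% of all genes called higher and 4.81% lower) and 2 of 80 with no filter (2.5%, beside 1.41% and 0.941%), and DESeq2 called 6 of 76 (7.89%, beside 4.40% and 2.79%). The replicate block gave 1 of 76 (1.32%, beside 1.89% and 1.34%), and leaving out single libraries 0 to 1. Usp18, at -0.00, was 0.02 with all 7 columns, 0.01 with DESeq2 size factors, 0.03 with library totals, 0.01 in DESeq2, 0.00 with no filter and 0.03 with the length trend removed, where Bst2 was 0.04. When single libraries were left out, the ranges that crossed 0 were -0.12 to 0.05 for Bst2, -0.56 to 0.24 for Isg15, -0.12 to 0.24 for Irf7, -0.31 to 0.39 for Usp18, -0.23 to 0.83 for Ifit1, -0.45 to 2.74 for Mx1, -0.04 to 0.16 for Xaf1, -0.63 to 0.49 for Oas1a and -0.22 to 0.13 for Oas1g. The causes were not tested. The median log2 fold change of the members stayed between 0.02 and 0.09. Only 2 control libraries entered the fits, and members under 3 CPM had few counts, which limits what could be resolved.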

Other observations

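Several interferon-stimulated genes outside the 36 had higher values in all 4 MC38 libraries than in both controls without passing the threshold in edgeR, and they were named after their values were seen. Of the 46 tested in that list, 10 were higher in this way, beside 14.0% of all genes tested. In the other direction 1 was lower, Ifi209 (log2 fold change -0.68), beside 15.0% of all genes. Slfn1, a schlafen family gene known for restraining lymphocyte growth in mouse, was at 39.6, 52.0, 63.9 and 58.0 CPM in MC38 libraries and 32.1 and 27.5 CPM in control libraries (log2 fold change 0.84, edgeR adjusted p = 0.0974). Its relative Slfn2 was at 78.3, 104.3, 99.4 and 79.9 CPM in MC38 libraries and 63.0 and 59.1 CPM in control libraries (0.57, edgeR adjusted p = 0.129). Samd9l, a growth-restraining antiviral gene, was at 36.4, 34.3, 61.3 and 74.6 CPM in MC38 libraries and 21.7 and 28.7 CPM in control libraries (1.03, edgeR adjusted p = 0.16). Oas1b was at 15.4, 10.7, 5.95 and 5.99 CPM in MC38 libraries and 2.10 and 3.96 CPM in control libraries (1.64, edgeR adjusted p = 0.17). In the induction pathway the kinase gene Tbk1 was at 50.9, 55.0, 60.5 and 54.0 CPM in MC38 libraries and 33.7 and 37.6 CPM in control libraries (0.63, edgeR adjusted p = 0.0971).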
